A study of Arabidopsis thaliana with 12 samples.

Results

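The 10 genes described here encode core proteins of the small RNA pathways of Arabidopsis thaliana: the Dicer-like nucleases DCL1 (AT1G01040), DCL2 (AT3G03300), DCL3 (AT3G43920) and DCL4 (AT5G20320), the Argonautes AGO1 (AT1G48410) and AGO4 (AT2G27040), the RNA-dependent RNA polymerases RDR2 (AT4G11130) and RDR6 (AT3G49500), and the largest subunits of RNA polymerases IV and V, NRPD1 (AT1G63020) and NRPE1 (AT2G40030). They were taken by identifier from a list of pathway genes, with no threshold on their values, and all 10 were found among the 32992 genes measured. Their mRNA was measured in shoots of seedlings aged 14 days, by sequencing RNA purified on oligo(dT) beads. The light period was 8 h at 22 °C and the night 16 h at 18 °C. The groups were the hybrids C24/Col and Col/C24, made by crossing the accessions, and the wild-type accessions C24 and Col, with 3 replicates each. The labels name no transgene, mutation or treatment in any group, and the sources used here do not say which parent of a hybrid was the mother. The labels do not say whether replicates came from separate plants, and p-values therefore measure the spread between these 12 libraries.

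Plants cut double-stranded RNA with Dicer-like nucleases, and the resulting small RNAs guide Argonautes to matching RNA or chromatin. DCL1 and AGO1 make and use microRNAs. RDR6, with its partner SGS3, and DCL4 make trans-acting siRNAs from cleaved TAS transcripts, while RNA polymerase IV, RDR2 and DCL3 make the siRNAs that AGO4 and RNA polymerase V use to direct DNA methylation. DCL1 and AGO1 are themselves cut by microRNAs, and TAS1 and TAS2 transcripts enter the pathway after cleavage guided by miR173.

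The microRNAs that target 2 of the genes, and the one that starts TAS1 and TAS2 processing, are printed with their sites because these pairs tie the genes to their own products. Sequences are from the RefSeq annotation of TAIR10.1, 5′ to 3′. Capitals mark the seed (bases 2 to 8) in a microRNA and the bases opposite it in a site.
miR168a: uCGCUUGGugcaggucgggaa
AGO1 site: uucccgagcugcaUCAAGCUa
miR162a: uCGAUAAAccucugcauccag
DCL1 site: cuggaugcagaggUAUUAUCGa
miR173: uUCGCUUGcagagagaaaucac
TAS1A and TAS1C site: gugauuuuucucuaCAAGCGAa
TAS1B site: gugauuuuucucaaCAAGCGAa
TAS2 site: gugauuuuucucucCAAGCGAa
The AGO1 site lies in the coding sequence at chr1:17891529-17891549 on the minus strand and pairs with miR168a with 2 mismatches and 1 G:U pair. The DCL1 site lies in the coding sequence across an exon junction, at chr1:27522-27627 on the plus strand, and pairs with miR162a without a mismatch but with 1 unpaired base. That base lies within the stretch in capitals, which is thus 1 base longer than the seed. The TAS1B site (chr1:18549660-18549681, minus strand, noncoding transcript) has 2 mismatches to miR173, while those of TAS1A, TAS1C and TAS2 have 1 each. The microRNAs themselves were not measured.

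The libraries held an estimated 15.6 to 27.2 M reads (M being 1e6), and the values are RPKM, reads scaled to gene length in kilobases and to M mapped reads. All 5 shoot markers were present in every group. Of 5 root markers only PYK10 reached 1 RPKM, and RHD6 and EXP7 were listed at 0. Seed storage transcripts summed to at most 1.0 RPKM in the parents but reached 55.4 RPKM in a Col/C24 library and 147 RPKM in a C24/Col library. In the 4 libraries of replicate 1 HSP70, a heat-inducible chaperone, stood at 50.4 to 261.6 RPKM, against 8.26 to 30.4 RPKM in the other 8. Within each replicate number HSP70 was higher in C24 (261.6, 28.8 and 30.4 RPKM) than in Col (50.4, 8.41 and 8.26 RPKM). The part this plays in C24 against Col was not tested. In bulk shoots fewer cells of a type and less RNA per cell cannot be told apart.

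The genes spanned a wide range of levels. Over the 12 libraries AGO1 averaged 68.9 RPKM, higher than 91.0% of the 17927 genes tested, and NRPD1 averaged 1.42 RPKM, higher than 7.02%. Between them came AGO4 (18.3 RPKM), RDR6 (9.36), DCL1 (7.31), DCL2 (5.32), DCL4 (4.66), NRPE1 (3.72), DCL3 (2.97) and RDR2 (2.33). AGO1, the main microRNA effector, and AGO4, the effector of DNA methylation, thus stood above the other 8 genes. With the genes of each group ranked by their means in that group, the replicates of 1 of 9 pairs of neighbours overlapped in C24/Col, 1 in Col/C24, 2 in C24 and 4 in Col. In Col, DCL4 and DCL2 (5.36 and 5.33 RPKM) overlapped, as did DCL3 and RDR2 (2.99 and 2.96 RPKM). In C24, DCL4 (3.88 RPKM) ranked after NRPE1 (4.07 RPKM) and before DCL3, both of which it overlapped, and RDR2 (1.87 RPKM) lay below DCL3 (3.05 RPKM) without overlap.

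**Figure D1:**
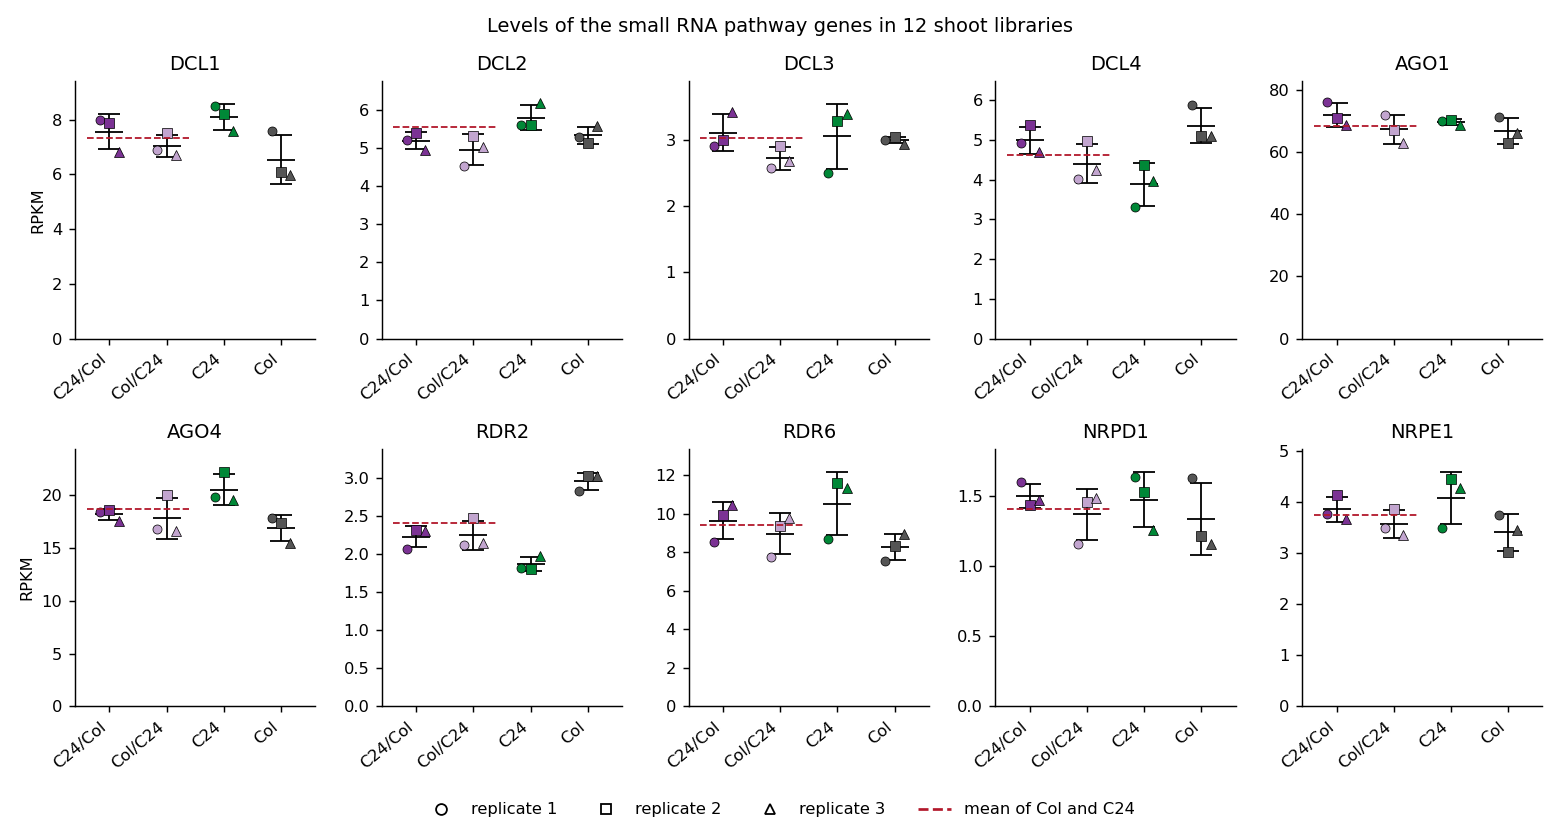
RPKM of the 10 genes (vertical axes from 0) in C24/Col, Col/C24, C24 and Col; each symbol is a library, the shape gives its replicate number, horizontal bars with whiskers are means ± SD and the dashed line is the mean of Col and C24. RDR2 stands at 1.81 to 1.97 RPKM in C24 and at 2.83 to 3.02 RPKM in Col, with both hybrids between them.

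The comparison of C24 with Col asks how far the accessions differ in this machinery. RDR2, which copies RNA polymerase IV transcripts into double-stranded RNA, and DCL4, which cuts the substrates of trans-acting siRNAs, were lower in C24. No gene of the 10 was called higher, so that 2 of 10 passed an adjusted p of 0.05, where 22.7% of all genes tested did (10.3% higher, 12.4% lower). The median log2 change of the 10 genes was 0.09, against -0.01 over all genes tested. The replicates of C24 and Col did not overlap for 5 of the 10 genes (DCL1, DCL2 and AGO4 higher, DCL4 and RDR2 lower), where 37.4% of all genes tested had no overlap (16.7% higher, 20.8% lower).

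RDR2 had 1.82, 1.81 and 1.97 RPKM in C24, against 2.83, 3.02 and 3.02 RPKM in Col. Every C24 library lay below every Col library, by a gap several times the spread within either group. The level was 1.58-fold lower in C24 (log2 change -0.47 on the log2(RPKM + 1) scale, SE 0.0782, limma adjusted p = 0.00151). The call held in all 13 alternatives, with adjusted p from 0.000911 to 0.0215.

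DCL4 had 3.30, 4.37 and 3.96 RPKM in C24, against 5.87, 5.10 and 5.10 RPKM in Col. The groups did not overlap, and the pair of replicate 1 held both the lowest C24 and the highest Col value. The level was 1.38-fold lower in C24 (log2 change -0.39, SE 0.105, limma adjusted p = 0.0229). This call rested on replicate 1: without C24 replicate 1 the limma adjusted p was 0.0782, without Col replicate 1 it was 0.0839, and without replicate 1 of all 4 groups the log2 change was -0.24 with an adjusted p of 0.19. It was also lost with only the 2 groups in the fit (adjusted p = 0.0638).

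3 further genes were called higher in C24 once the replicate number entered the fit as a block, which raised the count to 3 higher and 2 lower, with 41.8% of all genes tested then called (20.2% higher, 21.5% lower). AGO4 had 19.79, 22.23 and 19.56 RPKM in C24, against 17.81, 17.36 and 15.46 RPKM in Col. DCL1, which makes microRNAs, had 8.50, 8.21 and 7.59 RPKM in C24, against 7.58, 6.07 and 5.96 RPKM in Col. For both the groups did not overlap, although the highest Col value of DCL1 came within 0.01 RPKM of the lowest C24 value. RDR6, which copies cleaved transcripts, had 8.68, 11.61 and 11.32 RPKM in C24, against 7.57, 8.32 and 8.95 RPKM in Col. Its groups overlapped, since C24 replicate 1 lay below Col replicate 3. Without the block the log2 changes were 0.27 for AGO4 (SE 0.0891, limma adjusted p = 0.0531), 0.28 for DCL1 (SE 0.0984, adjusted p = 0.0676) and 0.31 for RDR6 (SE 0.125, adjusted p = 0.106). With it the limma adjusted p was 0.00681 for AGO4, 0.015 for DCL1 and 0.00321 for RDR6. Single libraries weighed here too: without Col replicate 1 DCL1 passed (limma adjusted p = 0.0202), and without C24 replicate 1 RDR6 passed (limma adjusted p = 0.0286).

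The other 5 genes gave no call in any alternative. The log2 changes in C24 against Col were 0.20 for NRPE1 (limma adjusted p = 0.181), 0.10 for DCL2 (0.394), which makes siRNAs against viruses, 0.09 for NRPD1 (0.619), 0.06 for AGO1 (0.60) and 0.01 for DCL3 (0.94), with 95% intervals that all include 0. That of AGO1 ran from -0.098 to 0.222. NRPD1 had the fewest reads behind it, an estimated 123 in its shallowest library.

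**Figure D2:**
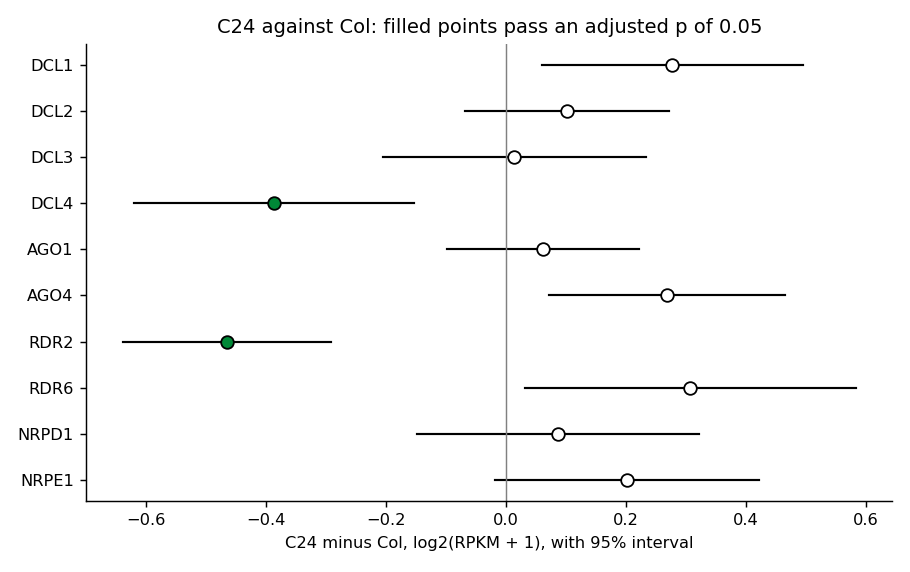
C24 minus Col on the log2(RPKM + 1) scale (horizontal axis) for the 10 genes, with 95% intervals from limma; filled points pass an adjusted p of 0.05. RDR2 and DCL4 are lower in C24 and filled; AGO4, DCL1 and RDR6 lie above 0 without passing.

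Ribosomal RNA left after the oligo(dT) step took 0.231% to 0.441% of summed RPKM in C24 and 0.576% to 2.69% in Col. Adding this share to the model, the limma adjusted p was 0.00587 for RDR2 and 0.0483 for DCL4. The summed root markers were 108.8 to 112.9 RPKM in C24, against 70.8 to 96.7 RPKM in Col, a sum made up almost wholly of PYK10. PHT1;1 went the other way, at 0.03 to 0.05 RPKM in C24 against 0.45 to 0.66 RPKM in Col. Only PYK10 was above 1 RPKM, and the part these markers play in the values was not tested.

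Of 73 tested partner genes from 9 lists of the same pathways, 4 were higher and 9 lower in C24, a share of 17.8% where 22.7% of all genes tested were called. With the block 9 were higher and 17 lower, a share of 35.6% where 41.8% of all genes tested were called. Both shares were below those of all genes tested. The median log2 change was -0.08, against -0.01 over all genes tested. Without replicate 1 the count was 3 higher and 5 lower, 8 of 73, where 17.7% of all genes tested were called. SGS3, TAS1B, QQS, SDN1, FDM1 and DMS4 passed in all 13 alternatives. ROS1, HWS and JMJ14 were lost without replicate 1 (limma adjusted p = 0.0503, 0.0597 and 0.0616), and WEX without Col replicate 2 (0.0556) and with ribosomal RNA in the model (0.0637). TAS2, RDM1 and ARF2 passed in 6 of 13 each, with limma adjusted p up to 0.136, 0.172 and 0.13. The call of TAS2 ended without any 1 of the C24 libraries or without Col replicate 2 or 3, that of RDM1 without C24 replicate 1 or 3 or Col replicate 1 or 2, and that of ARF2 without any 1 of the C24 libraries or without Col replicate 2.

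Among 7 genes of trans-acting siRNA production and silencing amplification 1 was higher, 2 were lower and 4 did not pass. Of all genes tested 10.3% were called higher and 12.4% lower. The lists were not tested as sets. SGS3, the RDR6 partner that stabilises its templates, had 27.54, 35.36 and 38.16 RPKM in C24, against 8.62, 10.53 and 11.19 RPKM in Col. The lowest C24 library held more than the highest Col library by a wide margin, a 3.33-fold difference in means (log2 change 1.64, SE 0.132, limma adjusted p = 6.81e-06). JMJ14, a histone demethylase, was lower at 12.3 ± 1.45 RPKM in C24 against 16.5 ± 0.895 RPKM in Col (SD, n = 3 each, limma adjusted p = 0.0101). WEX, an exonuclease, was lower at 3.09 ± 0.0289 RPKM in C24 against 4.17 ± 0.199 RPKM in Col (limma adjusted p = 0.0145).

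Of 6 tested precursor loci of small RNAs 2 were lower in C24 and 4 did not pass, where 12.4% of all genes tested were lower. The median log2 change was -0.31, against -0.01 over all genes tested. TAS1B had 1.22, 1.15 and 0.71 RPKM in C24, against 3.52, 3.98 and 3.44 RPKM in Col (log2 change -1.20, SE 0.148, limma adjusted p = 0.000176). No C24 library reached any Col library; the locus overlaps a microRNA gene on the opposite strand, and the counting is not stated to use strand. TAS2 had 7.53, 7.59 and 8.18 RPKM in C24, against 9.66, 11.08 and 11.37 RPKM in Col (limma adjusted p = 0.0294). TAS1A averaged 4.71 ± 0.624 RPKM in C24 and 6.19 ± 0.993 RPKM in Col (adjusted p = 0.112 in limma, 0.0234 with the block). TAS1C averaged 3.77 ± 0.340 RPKM in C24 and 4.86 ± 0.709 RPKM in Col (limma adjusted p = 0.129), and TAS3 12.7 ± 1.21 RPKM in C24 and 13.8 ± 1.90 RPKM in Col (limma adjusted p = 0.547). MIR162A, whose microRNA targets DCL1, averaged 7.26 ± 0.999 RPKM in C24 and 5.64 ± 0.235 RPKM in Col (adjusted p = 0.0739 in limma, 0.0458 with the block). MIR168A, MIR168B, MIR162B and MIR403 were listed at 0 in every library.

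In the microRNA list 1 of 16 genes was higher and 1 lower, where 22.7% of all genes tested were called. HWS, an F-box protein linked to microRNA function, was higher at 6.60 ± 0.587 RPKM in C24 against 4.24 ± 0.682 RPKM in Col (limma adjusted p = 0.00785). SDN1, a nuclease that degrades microRNAs, was lower at 2.24 ± 0.268 RPKM in C24 against 4.69 ± 0.558 RPKM in Col (limma adjusted p = 0.000937). SDN1, JMJ14, WEX, RDM1 and NRPE5 each overlap a gene on the opposite strand, so their values could include its reads. Among 17 cofactors of RNA-directed DNA methylation FDM1, a double-stranded RNA binding protein, was higher, at 29.96 ± 1.21 RPKM in C24 against 19.3 ± 2.10 RPKM in Col (limma adjusted p = 0.0013). DMS4 was lower, at 8.69 ± 0.582 RPKM in C24 against 11.9 ± 0.877 RPKM in Col (limma adjusted p = 0.00321), as was RDM1, at 12.1 ± 0.927 RPKM in C24 against 14.9 ± 1.13 RPKM in Col (limma adjusted p = 0.0326).

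Of 6 tested genes known to respond to silencing, 1 was higher and 2 were lower, where 22.7% of all genes tested were called. ROS1, a DNA demethylase whose transcription depends on methylation of its promoter, had 10.80, 13.45 and 13.41 RPKM in C24, against 17.92, 16.16 and 16.35 RPKM in Col (limma adjusted p = 0.00627). QQS, a gene prone to epigenetic variation, averaged 0.19 ± 0.0866 RPKM in C24 and 1.72 ± 0.282 RPKM in Col (limma adjusted p = 2.71e-05). ARF2, an auxin response factor, was higher at 102 ± 1.16 RPKM in C24 against 88.5 ± 4.07 RPKM in Col (limma adjusted p = 0.0286).

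No gene passed among the Dicer partners (5 tested), the other Argonautes (4), the other RNA-dependent RNA polymerases (4) or the other subunits of RNA polymerases IV and V (8, with shared and RNA polymerase II subunits). Their most abundant members were DRB2 and DRB3, AGO10 and AGO2, RDR1 and AT2G19930, and NRPB1 and NRPB2. With the block 6 genes of these lists passed, where 41.8% of all genes tested were called (22.7% without it). AGO10, which binds microRNAs in the shoot apex, AGO2, NRPE9B and RTL2 were higher in C24 (limma adjusted p = 0.0106, 0.0194, 0.0102 and 0.0243), and DRB5 and NRPE5 were lower (limma adjusted p = 0.00182 and 0.00595). AGO10 averaged 27.1 ± 6.20 RPKM in C24 and 20.9 ± 1.74 RPKM in Col, and AGO2 5.27 ± 0.931 RPKM in C24 and 4.08 ± 0.522 RPKM in Col.

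**Figure D3:**
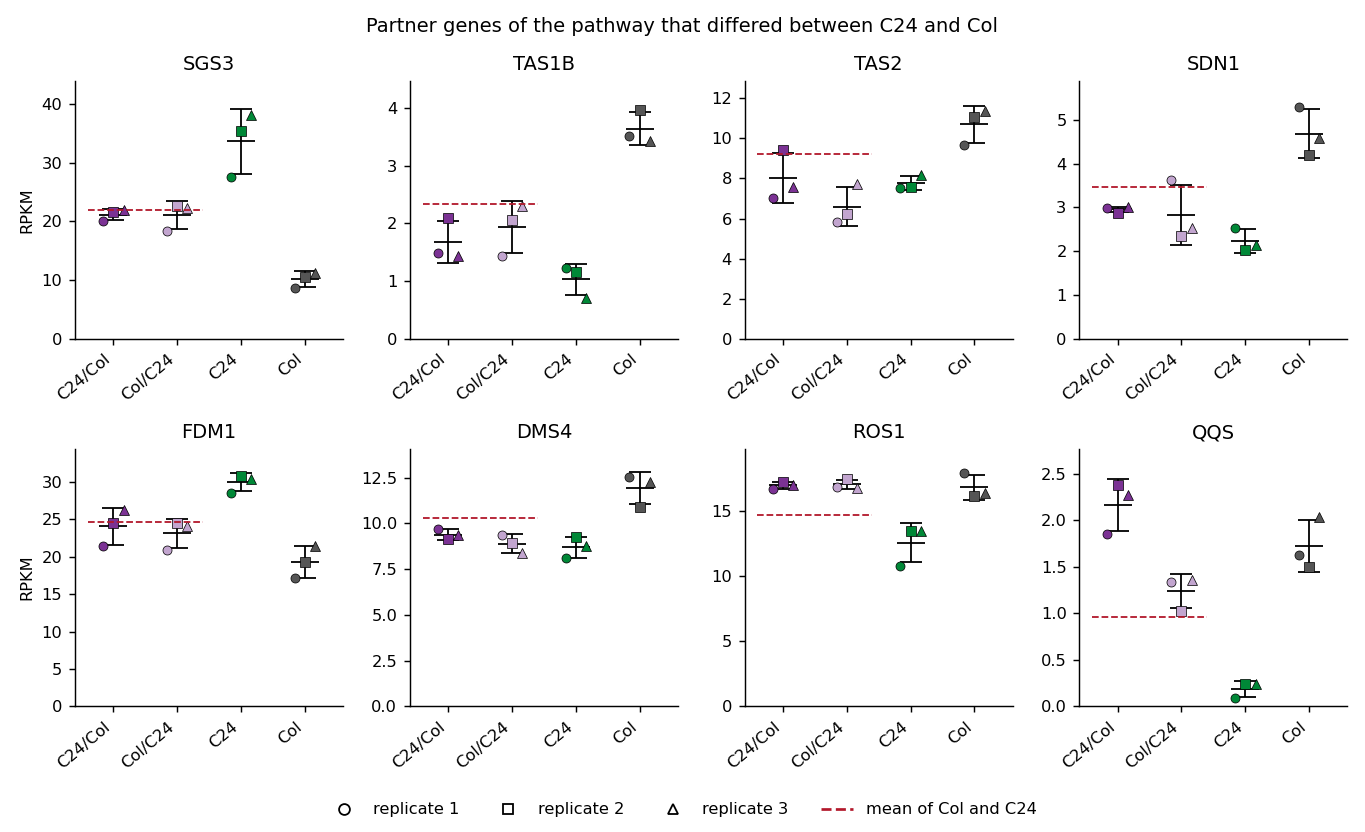
RPKM (vertical axes from 0) of 8 partner genes that passed in C24 against Col, in C24/Col, Col/C24, C24 and Col; symbols are libraries, bars with whiskers are means ± SD and the dashed line is the mean of Col and C24. SGS3 is at 27.5 to 38.2 RPKM in C24 and 8.62 to 11.2 RPKM in Col with the hybrids near the dashed line, while ROS1 in both hybrids is at the level of Col.

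The mid-parent profiles, each averaging 1 C24 and 1 Col library with equal replicate numbers, served to ask whether the hybrids depart from an average of their parents. None of the 10 genes passed in C24/Col, where 0.0502% of all genes tested did, or in Col/C24, where 0.0335% did. Both comparisons share the mid-parent profiles and are not independent. With the block again none of the 10 passed, where 1.57% of all genes tested did in C24/Col and 2.9% in Col/C24. All log2 changes lay between -0.08 and 0.09 in C24/Col and between -0.14 and -0.02 in Col/C24. Over all genes tested the median was 0.00 in C24/Col and -0.09 in Col/C24. The median of the 10 genes in Col/C24 was -0.06, and median-of-ratios scaling turned it to 0.02, with -0.01 over all genes tested.

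RDR2 had 2.07, 2.32 and 2.30 RPKM in C24/Col and 2.12, 2.47 and 2.15 RPKM in Col/C24, against mid-parent profiles that averaged 2.41 ± 0.0851 RPKM. All 6 hybrid libraries lay above every C24 and below every Col library. The log2 change from the mid-parent was -0.08 in C24/Col (95% interval -0.261 to 0.102) and -0.07 in Col/C24 (-0.254 to 0.108). In C24/Col its libraries lay below all mid-parent profiles, as did those of 7.72% of all genes tested. The highest of these libraries (2.32 RPKM) and the lowest profile (2.325 RPKM) were nearly equal.

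DCL4 had 4.93, 5.36 and 4.69 RPKM in C24/Col and 4.01, 4.97 and 4.23 RPKM in Col/C24, against a mid-parent of 4.62 ± 0.106 RPKM. Both hybrids overlapped the mid-parent profiles, with the mean of C24/Col on the Col side and that of Col/C24 on the C24 side. DCL2 had 5.21, 5.41 and 4.96 RPKM in C24/Col and 4.52, 5.33 and 5.03 RPKM in Col/C24, against a mid-parent of 5.57 ± 0.271 RPKM. It was the only gene of the 10 whose mean was below both parental means in both hybrids, a share not computed over all genes. The Col/C24 libraries lay below all mid-parent profiles, as did those of 14.9% of all genes tested, and the log2 change of -0.14 did not pass (SE 0.0771, limma adjusted p = 0.598, 95% interval -0.317 to 0.035).

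For DCL1, DCL4, AGO4, RDR2, RDR6 and NRPE1 the means of both hybrids lay between the parental means, 6 of 10 genes, against 39.7% of all genes tested. DCL1 averaged 7.56 ± 0.654 RPKM in C24/Col and 7.04 ± 0.412 RPKM in Col/C24, against a mid-parent of 7.32 ± 0.651 RPKM. AGO4 averaged 18.2 ± 0.552 RPKM in C24/Col and 17.8 ± 1.91 RPKM in Col/C24, against 18.7 ± 1.15 RPKM. RDR6 averaged 9.65 ± 0.976 RPKM in C24/Col and 8.97 ± 1.07 RPKM in Col/C24, against 9.41 ± 1.12 RPKM. These differences were smaller than the spread between replicates. Seed storage transcripts were present in C24/Col replicates 1 and 3 and Col/C24 replicate 1. No gene of the 10 passed when any 1 of these libraries was left out, but none had passed with them in either. In C24/Col the other such library stayed in each time, and the part these transcripts play was not tested.

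**Figure D4:**
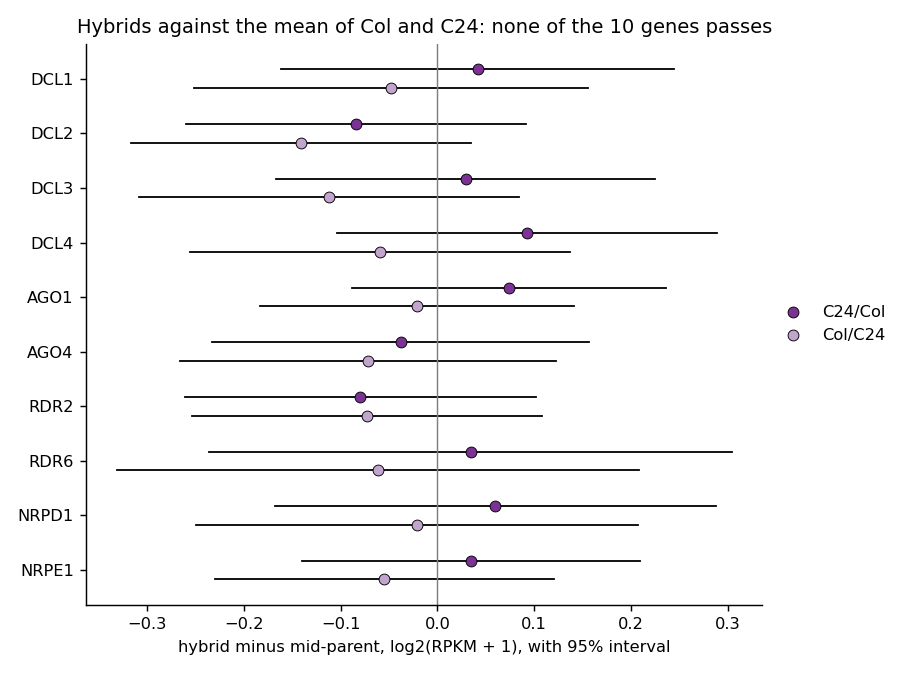
Hybrid minus mid-parent on the log2(RPKM + 1) scale (horizontal axis) for the 10 genes, with 95% intervals from limma, C24/Col above Col/C24 in each row. Every interval includes 0, and the estimates run from -0.14 for DCL2 in Col/C24 to 0.09 for DCL4 in C24/Col.

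The partners of the 10 genes gave no call against the mid-parent either, in 73 genes and both hybrids. SGS3 averaged 21.2 ± 1.01 RPKM in C24/Col and 21.1 ± 2.33 RPKM in Col/C24, against a mid-parent of 21.9 ± 3.42 RPKM. ROS1 averaged 17.0 ± 0.261 RPKM in C24/Col and 17.0 ± 0.353 RPKM in Col/C24, against a mid-parent of 14.7 ± 0.281 RPKM, so that both hybrids stood at the Col level of 16.8 ± 0.966 RPKM (limma adjusted p = 0.583 and 0.472 against the mid-parent, 0.0746 and 0.0552 with the block). With the block 2 of 73 partners passed in C24/Col, a share of 2.74% where 1.57% of all genes tested did. In Col/C24 1 passed, a share of 1.37% where 2.9% of all genes tested did. QQS was higher in C24/Col (2.17 ± 0.280 RPKM against 0.957 ± 0.159 RPKM, limma adjusted p = 0.0247), and TAS3 was lower there (10.2 ± 1.24 RPKM against 13.3 ± 1.51 RPKM, limma adjusted p = 0.0494). TAS2 was lower in Col/C24 (6.59 ± 0.987 RPKM against 9.24 ± 0.596 RPKM, limma adjusted p = 0.0482).

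C24/Col and Col/C24 were compared to see whether the direction of the cross matters. None of the 10 genes and 0.0% of all genes tested passed in limma. An unadjusted limma p under 0.05 was found for 745 of the 17927 genes tested, none of them among the 10. On average the threshold alone would give more if no gene differed. The log2 changes ran from -0.01 for RDR2 (95% interval -0.179 to 0.166) to 0.15 for DCL4 (-0.081 to 0.385). AGO1 had 76.05, 70.88 and 68.82 RPKM in C24/Col, against 71.94, 67.22 and 62.78 RPKM in Col/C24, and these groups overlapped. Over all genes tested the median log2 change was 0.08, and 0.00 after median-of-ratios scaling, and 9 of the 10 genes had values above 0.

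Libraries with the same replicate number deviated together, and the 4 libraries of replicate 1 stood apart. In a model with group and replicate, RDR6 alone of the 10 differed between replicate 1 and replicates 2 and 3, where 34.1% of all genes tested did (17.5% lower). Replicate 1 was singled out because earlier results of these data had shown it to stand apart. Its 4 libraries share a number, so the p-values of this comparison do not measure the spread between replicate numbers. RDR6 had 8.56, 7.76, 8.68 and 7.57 RPKM in replicate 1 of C24/Col, Col/C24, C24 and Col, a mean of 8.14 ± 0.559 RPKM (SD, n = 4), against 9.81 ± 1.38 RPKM in replicate 2 and 10.1 ± 1.003 RPKM in replicate 3. Within every group replicate 1 was the lowest of the 3 libraries. The log2 change was -0.26 (SE 0.049, limma adjusted p = 0.00215) and the call held in all 8 alternatives. SGS3 was lower in replicate 1 in the same way (log2 change -0.27, SE 0.0501, limma adjusted p = 0.00171), and HSP70 was at 50.4 to 261.6 RPKM in these libraries; the part of that difference in the values of RDR6 was not tested.

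AGO1 averaged 72.4 ± 2.57 RPKM in replicate 1, against 67.8 ± 3.69 RPKM in replicate 2 and 66.6 ± 2.82 RPKM in replicate 3 (log2 change 0.11, SE 0.0403, limma adjusted p = 0.0642). It passed after median-of-ratios scaling (adjusted p = 0.00829) and with ribosomal RNA in the model (adjusted p = 0.0434). Among the 73 partners, 5 were higher in replicate 1 and 18 lower, a share of 31.5% where 34.1% of all genes tested were called. The median log2 change was -0.09, against -0.04 over all genes tested. AGO2 and AGO3 were higher and AGO10 lower (limma adjusted p = 0.0184, 0.00733 and 0.000477). AGO2 was lost without the C24/Col, Col/C24 or C24 libraries (limma adjusted p = 0.0561, 0.0799 and 0.0847), and AGO3 without the C24 libraries (0.0534). The count of partners was 3 higher and 11 lower without C24/Col, 2 and 12 without Col/C24, and 1 and 11 without C24, shares of 16.4% to 19.2% where 23.2% or more of all genes tested were called.

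**Figure D5:**
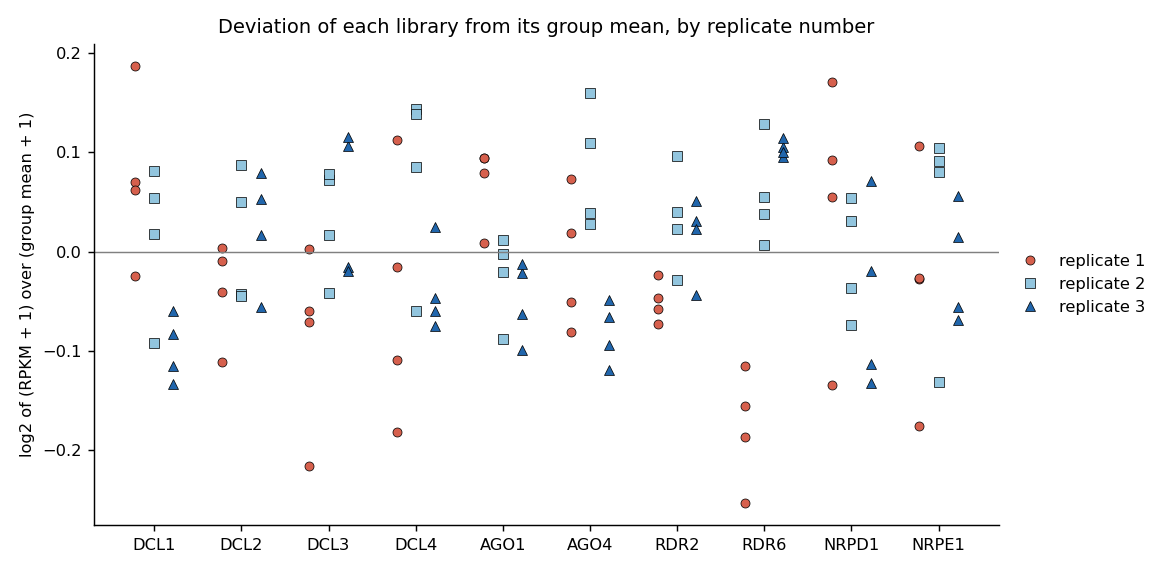
Deviation of each library from its group mean, as log2 of (RPKM + 1) over (group mean + 1) (vertical axis), for the 10 genes (horizontal axis), with the shape and colour giving the replicate number. RDR6 in the 4 replicate 1 libraries lies below 0 in every group, and no other gene has all 4 replicate 1 points as far from 0.

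The genes most like each of the 10 across the 12 libraries were found by Pearson correlation of log2(RPKM + 1), as a description, since the libraries share groups and replicate numbers. The closest to RDR2 were SVB (r = 0.969), SAE1B (r = 0.968) and KIN2 (r = 0.964), and the closest to RDR6 were OTLD1 (r = 0.972), AGD2 (r = 0.968) and UBQ3 (r = 0.965). For the other genes the closest were ICK1 for DCL1 (r = 0.947), CRTISO for DCL2 (r = 0.894), NFD5 for DCL3 (r = 0.955) and RMA1 for DCL4 (r = 0.955). AGO1 was closest to PRT6 (r = 0.931), AGO4 to AAE18 (r = 0.935), NRPD1 to TBL11 (r = 0.847) and NRPE1 to emb1507 (r = 0.923).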

How the data were processed

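Per the submitters' processing notes, TopHat and the TAIR10 build were used for the 12 libraries. How genes were counted is not given in the sources used here. TAIR10 is a Col sequence, and its effect on values of C24 reads was not tested. The authors deposited 1 value per gene and library without a header, read here as RPKM from the spacing of low values. For genes of 150 to 600 bp this spacing gave depths of 15.6 to 27.2 M reads, with 70.0% to 76.9% of low values whole within 0.15 of a read, so that 0.0734 to 0.128 RPKM stand for 3 reads at a length of 1500 bp (counting error only). Of 33559 identifiers 567 occurred more than once and were left out. DCL1 overlaps 3 annotated genes, and DCL2 and DCL3 overlap 1 each, so reads could be shared.

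The 17927 genes that reached 1 RPKM in 3 or more libraries were fitted on log2(RPKM + 1), which understates changes of low genes, with limma 3.58.1 in R 4.3.3 (moderated variances with a trend, Benjamini-Hochberg adjustment, threshold 0.05). The 12 libraries were fitted together by group, and the 6 hybrid libraries with 3 mid-parent profiles. Tables and plots were made in Python 3.11.15 (pandas 2.3.3, numpy 2.4.6, matplotlib 3.10.9). The models were tested on simulated data drawn without a replicate effect. That test does not cover the shared deviations by replicate number described next.

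Deviations from group means correlated at 0.538 to 0.825 in the 18 pairs that share a replicate number and at -0.649 to 0.187 in the other 36, so the numbers pair the libraries by the data; the labels name no batch. Alternatives were the block, no filter, a pseudocount of 0.1, median-of-ratios scaling, the ribosomal RNA share as covariate, fewer groups, other mid-parents and each replicate left out.

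The 10 genes and the lists were chosen with earlier results of these data known. Of 88 listed partners 85 were used, 3 having another name in the annotation, and 73 passed the filter. All 10 genes are named, with up to 3 passing genes per list by adjusted p in C24 against Col, or the 2 with the highest mean where none passed, and all precursor loci. In the other comparisons partners already named are given, with passing ones singled out after their values were seen. The ratios in the closing section were also chosen after values were seen.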

Additional observations from a re-analysis of the deposited data

How the results depend on the processing

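The numbers pair the libraries by the data, and with the replicate block the genes called of all tested were 7490 in C24 against Col (4071 without it), 282 in C24/Col against the mid-parent (9 without it), 519 in Col/C24 against the mid-parent (6 without it) and 0 between the hybrids, while 5 instead of 2 of the 10 genes passed in C24 against Col; no other call among the 10 changed. Median-of-ratios scaling gave 4 of the 10 in C24 against Col (DCL1 and AGO4 added), where 24.3% of all genes tested were called, and only the 2 groups in the fit gave 1, where 17.9% were called. In replicate 1 against the others 2 of the 10 passed after scaling and 2 with the ribosomal RNA share as covariate (AGO1 added in each), where 35.2% and 35.0% of all genes tested were called. A geometric mid-parent gave 186 calls over all genes in C24/Col and 156 in Col/C24, and only 1 hybrid in the fit gave 1 and 3. Leaving out replicates gave 1 to 2 calls in C24/Col and 1 to 3 in Col/C24. Without replicate 1, or without C24 replicate 1, the 2 genes passing in C24 against Col were RDR2 and RDR6, and without Col replicate 1 they were RDR2 and DCL1. In these alternatives 17.7%, 18.6% and 17.9% of all genes tested were called, in that order. The causes were not tested. No direction of a called gene among the 10 reversed in any alternative. Estimated counts behind a value of the 10 genes started at 123 reads.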

Other observations

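Ratios within a library, chosen after the values were seen and given without a test, were computed for 5 pairs of genes. The libraries of C24 and Col did not overlap for RDR6 over RDR2, DCL1 over DCL4, SGS3 over RDR6 and AGO1 over AGO4, and overlapped for NRPE1 over NRPD1. RDR6 over RDR2 and DCL1 over DCL4 join genes whose means differed in opposite directions between C24 and Col. How often other pairs of genes give no overlap was not computed. RDR6 over RDR2 was 4.32 ± 0.207 in C24/Col, 4.003 ± 0.485 in Col/C24, 5.64 ± 0.827 in C24 and 2.80 ± 0.149 in Col (SD, n = 3 each). DCL1 over DCL4 was 1.52 ± 0.0922 in C24/Col, 1.61 ± 0.107 in Col/C24, 2.12 ± 0.392 in C24 and 1.22 ± 0.0655 in Col. SGS3 over RDR6 was 2.20 ± 0.124 in C24/Col, 2.35 ± 0.0709 in Col/C24, 3.20 ± 0.164 in C24 and 1.22 ± 0.0693 in Col. AGO1 over AGO4 was 3.96 ± 0.155 in C24/Col, 3.81 ± 0.465 in Col/C24, 3.40 ± 0.211 in C24 and 3.97 ± 0.335 in Col. NRPE1 over NRPD1 was 2.57 ± 0.267 in C24/Col, 2.63 ± 0.376 in Col/C24, 2.81 ± 0.636 in C24 and 2.58 ± 0.352 in Col. The summed RPKM of the 4 Dicers was 20.9 ± 0.899 in C24/Col, 19.1 ± 1.42 in Col/C24, 20.8 ± 0.820 in C24 and 20.2 ± 1.32 in Col, while DCL4 made up 23.9%, 23.0%, 18.6% and 26.5% of it in that order.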
